A study of Homo sapiens with 4 samples.

Results

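Transcripts of 10 circadian clock genes were followed across the 4 RNA-seq libraries of the study: the period genes PER1, PER2 and PER3, the cryptochrome genes CRY1 and CRY2, the REV-ERB genes NR1D1 and NR1D2, the output factor DBP, and the repressor genes BHLHE40 and BHLHE41. They were picked by symbol as clock repressors and outputs, and all 10 were present among the 16834 genes of the deposited table. The cells were MIA PaCa-2, an established human line of pancreatic ductal adenocarcinoma. RNA was taken after 12 h from a culture labelled control and from cultures given 1 µM NBT (neobractatin, a natural compound of Garcinia bracteata), 5 µM trametinib (an inhibitor of the kinases MEK1 and MEK2), or both drugs, called the combination. Each condition was sequenced as 1 library, so no value below has a replicate check, no p-value is given, and an effect of a drug cannot be told apart from the variation between cultures. All libraries were wild type by their labels, and the cell line entry carries a different number in each of them whereas the titles name MIA PaCa-2 throughout. Whether the control culture received a vehicle is not given in the sources used here. With 1 time point, the data give levels at that time and not a rhythm.

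The mammalian clock is a feedback loop of transcription. The activators CLOCK and BMAL1 bind E-box sequences in DNA and switch on the PER and CRY genes, whose proteins return to the nucleus and repress CLOCK and BMAL1. A second loop runs through the nuclear receptors NR1D1 and NR1D2, which repress the BMAL1 gene (ARNTL). DBP is a PAR bZIP factor that carries the rhythm to output genes with D-box sequences, and BHLHE40 and BHLHE41 (DEC1 and DEC2) are E-box binding repressors that compete with CLOCK and BMAL1. Many of these genes also respond to serum, growth factors and stress.

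The 10 genes are spread over 7 chromosomes. In GRCh38.p14, PER1 lies at chr17:8140472-8152404, PER2 at chr2:238244044-238300065, PER3 at chr1:7784291-7845177, CRY1 at chr12:106991364-107093549 and CRY2 at chr11:45847118-45883244. NR1D1 lies at chr17:40092793-40100589, NR1D2 at chr3:23945286-23980617, DBP at chr19:48630030-48637379, BHLHE40 at chr3:4979437-4985323 and BHLHE41 at chr12:26120030-26125037.

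Sequence near the start site is shown for 3 pairs of related genes whose members went in opposite directions with trametinib beyond counting error: PER1 and PER2, NR1D1 and NR1D2, BHLHE40 and BHLHE41. PER3 also differed from PER2 in direction, with an interval that began at 0.02, and is not shown. The sequences are from RefSeq (GRCh38.p14), and the window searched ran from 250 bases before to 50 bases after each start. Capitals mark the letters CACGTG (E-box), CACGTT (E-prime box), TTATGTAA or TTACGTAA (D-box) and TGACNNNGC (core of the antioxidant element), on either strand, so a match on the other strand appears as its reverse complement. The 228 bases of PER1 lie at chr17:8152427-8152654 (minus strand) and the 260 bases of PER2 at chr2:238288601-238288860 (minus strand). The 123 bases of NR1D1 lie at chr17:40100717-40100839 (minus strand). The 260 bases of NR1D2 lie at chr3:23945871-23946130 (plus strand) and run just past the second of its 2 listed starts. The stretches of PER1 and NR1D1 end before the start, and those of PER2 and NR1D2 lie inside the gene spans given above. For BHLHE40 and BHLHE41 only 26 bases around the E-box are given, at chr3:4979187-4979212 (plus strand) and chr12:26125070-26125095 (minus strand).
PER1: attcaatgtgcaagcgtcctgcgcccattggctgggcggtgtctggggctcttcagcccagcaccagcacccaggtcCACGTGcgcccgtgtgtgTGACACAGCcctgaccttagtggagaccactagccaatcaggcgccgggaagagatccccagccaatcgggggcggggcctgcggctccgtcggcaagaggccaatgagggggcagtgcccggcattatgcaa
PER2: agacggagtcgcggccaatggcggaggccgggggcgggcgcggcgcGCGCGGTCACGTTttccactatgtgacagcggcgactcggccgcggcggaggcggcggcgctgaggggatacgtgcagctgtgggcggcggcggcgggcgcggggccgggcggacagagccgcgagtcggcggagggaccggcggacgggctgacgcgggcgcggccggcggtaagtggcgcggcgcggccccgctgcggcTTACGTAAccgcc
NR1D1: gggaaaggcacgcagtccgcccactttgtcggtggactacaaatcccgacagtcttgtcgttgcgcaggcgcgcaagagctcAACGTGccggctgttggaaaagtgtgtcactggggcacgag
NR1D2: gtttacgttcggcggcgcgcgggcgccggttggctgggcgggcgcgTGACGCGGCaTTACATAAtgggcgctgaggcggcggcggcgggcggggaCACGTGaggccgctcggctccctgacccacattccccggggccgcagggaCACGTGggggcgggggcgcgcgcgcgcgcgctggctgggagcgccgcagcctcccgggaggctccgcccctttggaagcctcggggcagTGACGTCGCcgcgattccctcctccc
BHLHE40: tccaaCACGTGagactcatgtgatga
BHLHE41: gtacgttccgCACGTGagctgggtgc

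The E-box began 173 bases before the start in PER1, 155 and 105 bases before it in NR1D2, 245 bases before it in BHLHE40 and 48 bases before it in BHLHE41. PER2 and NR1D1 held the E-prime box, at 197 and 168 bases before the start, and in PER2 its first 2 bases also belong to a match of the antioxidant core. Over all 13 start sites listed for the 10 genes, 4 held CACGTG, against 7.26% of 35116 promoters, and 4 held CACGTT, against 5.34%. A D-box was found at PER2, PER3 and NR1D2. TTATGTAA is present in 0.886% and TTACGTAA in 0.125% of all promoters. The antioxidant core was found at 5 of the sites (13.3% of all promoters), and TAGGTCA, the core of the ROR element, at CRY2 (1.85%). TGACGTCA, the cyclic AMP element, and TGATGCAA, an element of C/EBP and ATF factors, were at none of the 13 (1.85% and 0.866% of all promoters). In each of these 3 pairs both genes held an E-box or an E-prime box near a listed start. For NR1D2 this was the second start, and its other start held none of the letters searched. These are matches of letters, and binding was not measured.

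At control level the 10 genes spanned from 1.28 TPM (PER3) to 20.67 TPM (BHLHE40). TPM is a read count scaled to transcript length and to a fixed library sum, so it allows genes to be compared. After BHLHE40 came CRY1 (13.87 TPM), NR1D2 (13.32 TPM), NR1D1 (10.45 TPM), CRY2 (7.29 TPM), PER2 (5.12 TPM), BHLHE41 (4.96 TPM), PER1 (3.49 TPM) and DBP (2.69 TPM). In the control library PER3 thus stood at the 33.1 percentile of all genes and BHLHE40 at the 63.6 percentile. Together the 10 genes took 0.0159% of the reads in the control, 0.0156% under NBT, 0.0180% under trametinib and 0.0179% under both. In such bulk RNA, fewer cells with a transcript and less of it per cell cannot be told apart. The summed share thus moved little, while single genes differed by up to 5.35 times in TPM between their highest and lowest library (DBP) and by at least 1.47 times (CRY2).

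**Figure D1:**
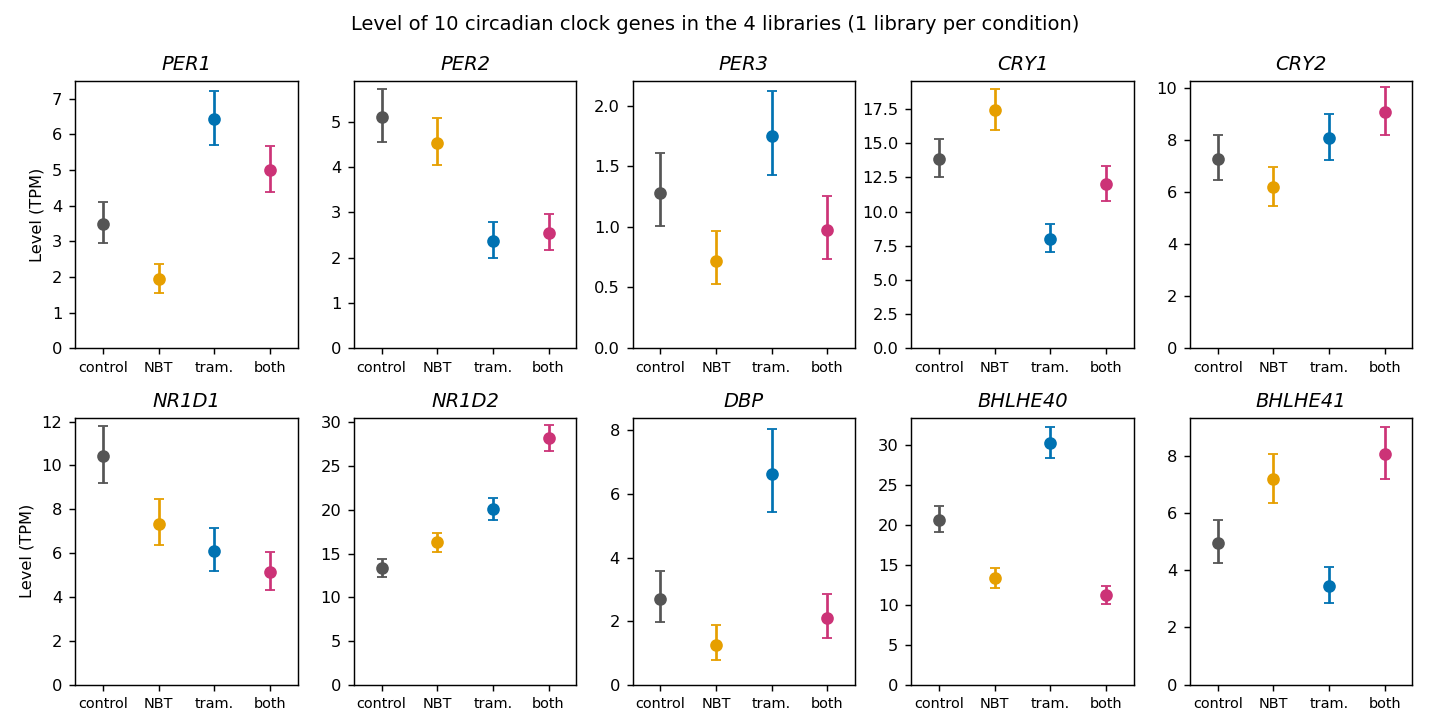
Level (TPM, linear axis from 0) of each of the 10 clock genes in the control, NBT, trametinib (tram.) and combination (both) library. Points are single libraries and bars are 95% Poisson intervals of the read count, which cover counting error only. PER1, PER3, DBP and BHLHE40 were highest with trametinib, whereas PER2, CRY1 and BHLHE41 were lowest there.

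The log2 fold changes below compare read counts scaled to the library sum, with 0.5 reads added, and are followed by a 95% Clopper-Pearson interval that covers counting error only. A gene is said to be past the limits when it meets the limits of the study's methods, a log2 ratio of 1 or more in size and an adjusted value of at most 0.05 in a Poisson-type test of the 2 libraries.

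The period genes, which encode the repressors that give the loop its delay, did not move together. PER1 had 150 reads in the control, 93 under NBT, 288 under trametinib and 232 under both (3.49, 1.93, 6.43 and 5.00 TPM). It was higher wherever trametinib was present and lowest with NBT alone, and each step of that order was larger than counting error. Against control, the log2 fold change of PER1 was -0.74 with NBT (from -1.13 to -0.36), 0.93 with trametinib (from 0.64 to 1.22) and 0.56 with the combination (from 0.26 to 0.87). Against NBT alone, PER1 was 2.46-fold higher in the combination (log2 1.30, from 0.95 to 1.67), which is past the limits.

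PER2 went the other way with trametinib. It had 311 reads in the control, 299 under NBT, 148 under trametinib and 165 under both (5.12, 4.54, 2.37 and 2.54 TPM). The libraries fell into 2 levels, with control and NBT within counting error of each other, trametinib and combination likewise, and a gap of 1.83-fold between them. PER2 was 2.12-fold lower with trametinib than in the control (log2 -1.08, from -1.38 to -0.80), past the limits, and its value with the combination was -0.98 (from -1.26 to -0.70), just short of them. The ratio of PER1 to PER2 in TPM was 0.682 in the control, 0.425 under NBT, 2.71 under trametinib and 1.97 under both, so the more abundant period gene differed between libraries with and without trametinib.

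PER3 had the fewest reads of the period genes, 74 in the control, 45 under NBT, 103 under trametinib and 59 under both. Its order of libraries differed from that of PER1 only in the places of the combination and the control, a step within counting error. PER3 was lower with NBT (log2 -0.76, from -1.34 to -0.21), and with trametinib its value was 0.46 (from 0.02 to 0.91).

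The cryptochromes bind the PER proteins and repress CLOCK and BMAL1 most directly. CRY1 had 398 reads in the control, 530 under NBT, 230 under trametinib and 365 under both (13.87, 17.42, 8.01 and 12.01 TPM). NBT alone was highest and trametinib alone lowest, with the combination within counting error of the control. The log2 fold change of CRY1 was 0.36 with NBT (from 0.17 to 0.55) and -0.80 with trametinib (from -1.04 to -0.57). For CRY2 the reads were 287, 264, 327 and 383 in the same order (7.29, 6.19, 8.09 and 9.09 TPM). No 2 neighbours in its order differed beyond counting error, although the combination exceeded NBT alone (log2 0.52, from 0.29 to 0.76). CRY1 was 1.90 times as abundant as CRY2 in TPM in the control and 2.81 times with NBT, whereas with trametinib the ratio was 0.990.

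The REV-ERB receptors, repressors of ARNTL in the second loop, moved apart. NR1D1 had 260 reads in the control, 198 under NBT, 157 under trametinib and 137 under both (10.45, 7.35, 6.12 and 5.13 TPM), the control being above all treated libraries by more than counting error. Its log2 fold change with the combination was -0.98 (from -1.30 to -0.68). NR1D2 had 661 reads in the control, 871 under NBT, 1004 under trametinib and 1463 under both (13.32, 16.28, 20.05 and 28.18 TPM). Every step of this order exceeded counting error. NR1D2 was 2.12-fold higher with the combination than in the control (log2 1.08, from 0.95 to 1.22) and alone among the members passed the limits there. In TPM, NR1D2 exceeded NR1D1 by 1.27 times in the control, 2.21 times under NBT, 3.28 times under trametinib and 5.49 times under both.

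The exons of NR1D1 overlap those of THRA, the thyroid hormone receptor alpha gene on the other strand, over 263 bases (9.49% of the NR1D1 exon bases in GENCODE v29). THRA had 345 reads in the control, 231 under NBT, 266 under trametinib and 123 under both, lowest in the same library as NR1D1. Whether the counting used strand is not given in the sources used here, and the part of shared reads in the NR1D1 values was not tested.

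DBP, the output factor, had the fewest reads of the 10 genes in every library but that of trametinib, with 48 in the control, 22 under NBT, 104 under trametinib and 39 under both (2.69, 1.24, 6.63 and 2.09 TPM). Trametinib alone stood above the other libraries, and the control and the combination were within counting error of each other. DBP was 2.13-fold higher with trametinib (log2 1.09, from 0.60 to 1.63) and 2.23-fold lower with NBT (log2 -1.16, from -1.97 to -0.42), both past the limits. In the combination it was 2.74-fold lower than with trametinib alone (log2 -1.45, from -2.03 to -0.92), again past the limits. The gene's exons share 661 bases with SPHK2 on the other strand (10.1% of the DBP exon bases), and SPHK2 had 520, 584, 370 and 505 reads in the same order of libraries, being lowest where DBP was highest. The part of shared reads in the DBP values was not tested. PER3 and BHLHE41 also overlap a gene on the other strand (UTS2 and SSPN), and these had at most 1 and 2 reads. PER1, PER2, PER3, CRY1 and BHLHE40 share exon bases with genes for which no count was available, so the reads of those genes are not known.

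TEF, a PAR bZIP factor of the same family as DBP, had 51 reads in the control, 38 under NBT, 107 under trametinib and 39 under both. Like DBP it was past the limits with trametinib against control (log2 1.05, from 0.56 to 1.57) and with the combination against trametinib (-1.49, from -2.07 to -0.96). The first of these TEF calls was lost with TMM or median-of-ratios scaling, with 5 added reads and with TPM, whereas DBP stayed past the limits under each of them. NFIL3, the bZIP repressor that competes with DBP at D-boxes, had 383, 538, 365 and 732 reads, a log2 fold change of 0.87 with the combination (from 0.69 to 1.05).

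BHLHE40 and BHLHE41 encode closely related repressors and went in opposite directions with each drug alone and with the combination. BHLHE40 had 619 reads in the control, 432 under NBT, 932 under trametinib and 360 under both (20.67, 13.31, 30.31 and 11.21 TPM). BHLHE41 had 177 reads in the control, 277 under NBT, 126 under trametinib and 308 under both (4.96, 7.17, 3.44 and 8.06 TPM). The order of libraries in BHLHE40 was thus the reverse of that in BHLHE41, and the steps of BHLHE40 all exceeded counting error, while combination and NBT did not differ beyond it in BHLHE41. In the trametinib library BHLHE40 exceeded BHLHE41 by 8.81 times in TPM, against 4.17 times in the control, 1.86 times with NBT and 1.39 times with the combination.

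For BHLHE40 the log2 fold change against control was -0.57 with NBT (from -0.75 to -0.39), 0.58 with trametinib (from 0.43 to 0.73) and -0.84 with the combination (from -1.04 to -0.66). For BHLHE41 it was 0.59 (from 0.32 to 0.88), -0.50 (from -0.84 to -0.17) and 0.73 (from 0.46 to 1.01). Between the combination and trametinib alone, BHLHE40 was 2.68-fold lower (log2 -1.42, from -1.60 to -1.25) and BHLHE41 2.36-fold higher (log2 1.24, from 0.94 to 1.55), and both were past the limits.

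**Figure D2:**
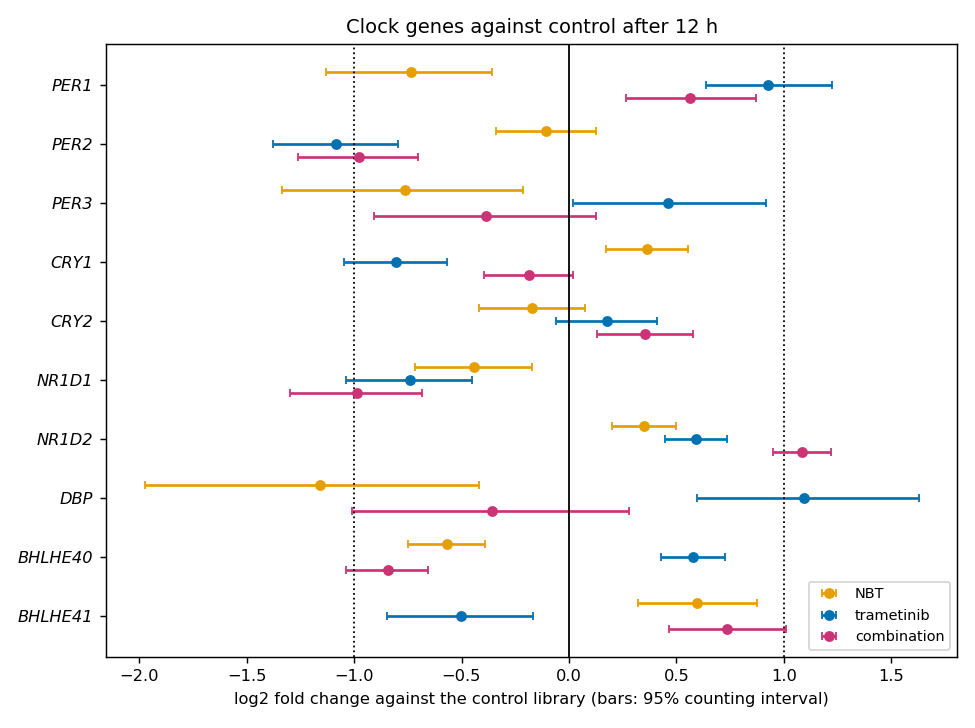
Log2 fold change of the 10 clock genes against the control library for NBT, trametinib and the combination, with 95% counting intervals as bars and dotted lines at -1 and 1. DBP and PER2 with trametinib, DBP with NBT and NR1D2 with the combination lie beyond the dotted lines, and the related genes PER1 and PER2, NR1D1 and NR1D2, and BHLHE40 and BHLHE41 lie on opposite sides of 0 with trametinib.

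Counted over the 10 genes, 1 was past the limits with NBT against control (DBP, lower), beside 2.61% of all 15888 genes tested. With trametinib 2 were past them (DBP higher, PER2 lower), beside 5.96% of all genes, and with the combination 1 (NR1D2, higher), beside 8.42%. In the combination against trametinib alone the count was 3 (BHLHE41 higher, BHLHE40 and DBP lower), beside 6.11%, and in the combination against NBT alone it was 1 (PER1, higher), beside 4.36%. These percentages include genes with only a few reads. Among genes with at least 10 counts in 1 of the 2 libraries they were 3.07%, 7.07%, 10.1%, 7.55% and 5.21%, in the same order of comparisons. Each count is of 10 genes and rests on single libraries, and the comparisons with control share the control library. Against control, the median log2 fold changes of the 10 genes were -0.31 (NBT), 0.32 (trametinib) and -0.27 (combination), beside -0.01, 0.08 and 0.05 over all genes tested. Since members stood on both sides of 0 in every comparison, these medians do not describe a common direction. With TMM or median-of-ratios scaling the count for the combination against control was 3, as PER2 and NR1D1 passed the limit of 1. The shares of all genes were then 8.46% and 8.48%. If cultures are assumed to vary with a coefficient of variation of 0.2, only BHLHE40 in the combination against trametinib was past the limits in any comparison, and with 0.4 none was. Of all genes, between 0.434% and 3.37% passed per comparison with 0.2, and between 0.0252% and 0.314% with 0.4.

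Differences beyond counting error were more numerous than those past the limits. With NBT the interval lay off 0 for 8 of the 10 genes (3 higher, 5 lower), where 41.2% of all genes had such an interval, and with trametinib for 9 (5 higher, 4 lower), where 47.6% did. With the combination it did so for 7 genes (4 higher, 3 lower; 53.1% of all genes), in the combination against trametinib for 7 (49.4%), and in the combination against NBT for 8 (42.7%). The percentages over all genes include genes with only a few reads, whose intervals are wide.

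To compare each drug without and with the other, the trametinib library was set against control and the combination against NBT. For PER1, PER2, CRY1, NR1D1, NR1D2 and DBP the log2 fold change had the same sign, with an interval off 0, in both comparisons. The change of BHLHE40 turned from 0.58 without NBT to -0.28 with NBT (from -0.48 to -0.07). The change of BHLHE41 was -0.50 without NBT and 0.14 with it (from -0.10 to 0.38). For NBT, PER1, PER3 and DBP were lower and CRY1, NR1D2 and BHLHE41 higher in both settings, and BHLHE40 was lower in both.

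**Figure D3:**
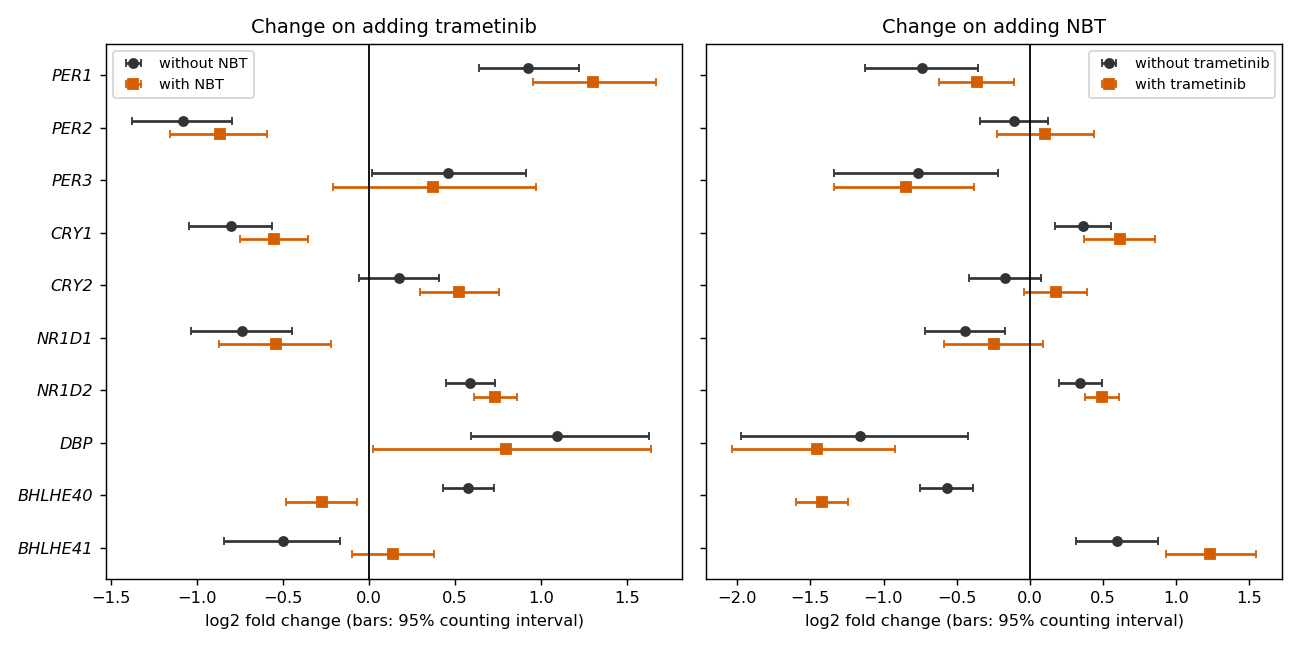
Left, log2 fold change on adding trametinib to control (circles) and to NBT (squares). Right, log2 fold change on adding NBT to control (circles) and to trametinib (squares), with 95% counting intervals. The trametinib values of BHLHE40 lie on opposite sides of 0 (0.58 and -0.28), and the NBT values of BHLHE40 and BHLHE41 are farther from 0 with trametinib present.

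The combination was also compared with the sum of the log2 fold changes of both single drugs. None of the 10 genes departed from that sum by 1 or more, beside 2.33% of 11367 genes with at least 50 counts in 1 library. The largest departure was that of BHLHE40, -0.85 (approximate counting interval from -1.10 to -0.60), where a sum of 0.01 met an observed value of -0.84. BHLHE41 departed by 0.64 (from 0.24 to 1.05) in the other direction, and CRY2 by 0.35 (from 0.03 to 0.67). The intervals of the other 7 genes included 0, NR1D2 among them by a small margin (0.15, from -0.04 to 0.33). With TMM factors the departure of NR1D2 was 0.19 and with TPM 0.20, for which no interval was computed. The share of all genes whose departure had an interval off 0 was not computed. For PER2 the departure was 0.21 (from -0.18 to 0.61).

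**Figure D4:**
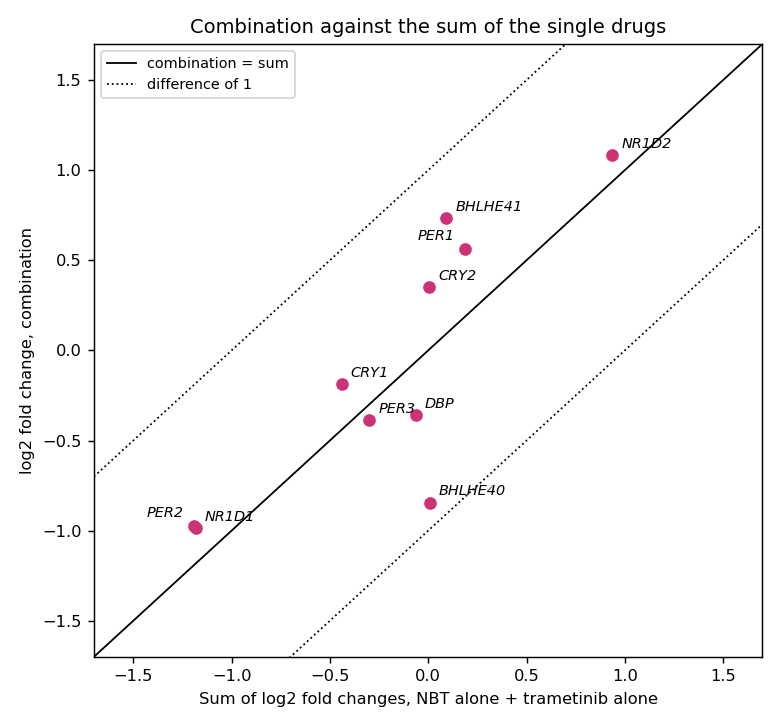
Log2 fold change of each clock gene with the combination (vertical axis) against the sum of its log2 fold changes with NBT alone and trametinib alone (horizontal axis). The solid line marks equality and the dotted lines a difference of 1. BHLHE40 lies farthest below the solid line and BHLHE41 farthest above it.

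The authors also gave estimated reads per RefSeq transcript, in which reads that match several transcripts are divided by a model. Shares, small or large, may thus be assigned to the wrong transcript, and 0 reads may be an outcome of that division. The Wilson intervals and the limits given for 0 reads cover counting error only and do not bound such errors of assignment. BHLHE41 and NR1D1 had 1 transcript each in the table. The higher level of NR1D2 was spread unevenly over its 3. NM_005126.5 had 612 reads in the control, 752 under NBT, 739 under trametinib and 787 under both, so most of the reads added with trametinib and with the combination were assigned elsewhere, while most of those added with NBT were assigned to it. XM_006713451.3 went from 49.3 reads in the control to 119 under NBT, 265 under trametinib and 410 under both, or from 7.41% of the gene (Wilson interval 5.7% to 9.7%) to 28.0% (25.8% to 30.4%). NM_001145425.1 took 18.2% (16.3% to 20.2%) with the combination and 0 reads with NBT or trametinib alone, which allows shares of up to 0.344% and 0.299%.

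For PER2, 3 transcripts shared the reads about evenly in the control. With the combination XM_006712824.4 took 69.7% (62.3% to 76.2%), against 34.2% in the control, and XM_005246111.4 took 0 reads, which allows up to 1.82%, against 31.0% in the control. The CRY1 transcript XM_024448844.1 took 27.9% with NBT and 18.7% with trametinib, and had 0 reads in the control and the combination (allowing up to 0.754% and 0.822%). NM_004075.5 of CRY1 had 364 reads in the control and 339 with NBT, so the higher CRY1 level with NBT was assigned to other transcripts. In DBP, XM_017026388.2 accounted for 26.5% of reads in the control (16.2% to 40.3%) and 63.5% with trametinib (53.9% to 72.1%), and NM_001352.5 had 36.0 and 38.5 reads in these libraries. The higher DBP level with trametinib was therefore assigned to XM_017026388.2. BHLHE40, by contrast, had between 92.7% and 98.4% of its reads on NM_003670.3 in the 4 libraries.

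**Figure D5:**
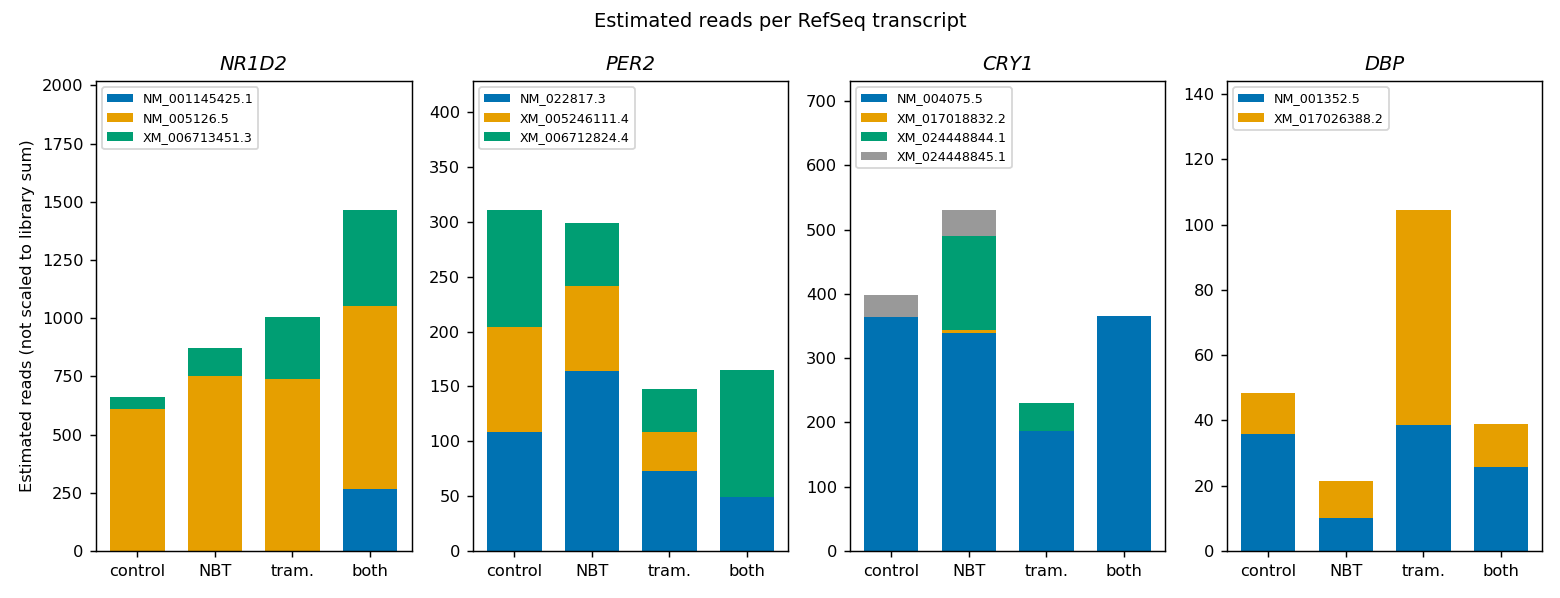
Estimated reads of each RefSeq transcript of NR1D2, PER2, CRY1 and DBP, stacked, in the control, NBT, trametinib (tram.) and combination (both) library. Reads are not scaled to the library sum. For NR1D2 the bar of NM_005126.5 is of like height in the treated libraries. That of XM_006713451.3 grows from the control to NBT, trametinib and both, and NM_001145425.1 has reads only with both.

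Other clock genes were taken from 4 lists. Of the activators, CLOCK had 968, 1019, 1046 and 1083 reads in the order control, NBT, trametinib and combination, and ARNTL, which encodes BMAL1, had 186, 250, 206 and 236. The ARNTL relative ARNTL2 was the most abundant activator, with 1759, 1762, 1635 and 1561 reads, and NPAS2, a CLOCK relative, had at most 5. None of the 4 activators was past the limits in any of the 5 comparisons, where between 2.61% and 8.42% of all genes were. For 4 genes a count of 0 is near those shares. The largest activator value with an interval off 0 was that of ARNTL with NBT, 0.38 (from 0.10 to 0.66). CLOCK was within counting error of the control in every treated library.

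Of the 5 ROR and PAR bZIP factors in the table, TEF alone was past the limits. Among 12 regulators of PER and CRY proteins, 11 were in the table and none was past the limits against control. CSNK1E, the casein kinase that marks PER proteins for breakdown, had a log2 fold change of -0.68 with trametinib (from -0.75 to -0.60) and -0.09 with the combination. USP2, a deubiquitinase gene with 19 to 59 reads, was past the limits in the combination against NBT (1.60, from 0.85 to 2.45). Of the 8 output genes, TSC22D3, which encodes the glucocorticoid-induced factor GILZ, had 132, 409, 558 and 829 reads and was past the limits with each drug and with both (log2 1.58, 2.06 and 2.58). CDKN1A, the gene of the cell cycle inhibitor p21, had 550, 958, 1907 and 2294 reads and was past them with trametinib (1.78) and with the combination (interval from 1.86 to 2.13). NAMPT, WEE1 and KLF10 had log2 fold changes from -0.09 to 0.21 in the 3 comparisons with control. Over the 28 genes of the 4 lists in the table, those past the limits numbered 1 (NBT), 4 (trametinib) and 2 (combination), with median log2 fold changes of 0.02, 0.03 and 0.16. These counts, of 27 or 28 genes tested, stand beside 2.61%, 5.96% and 8.42% of all genes.

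The genes whose pattern was most like that of a clock gene were sought among 10662 genes with at least 100 counts in 1 library, by the distance between their 3 log2 fold changes against control. This was done for the 3 members with the largest fold change. Nearest to DBP were STARD4 (distance 0.221), HMGCS1 (0.309) and ITGB8 (0.335). Nearest to NR1D2 were CHMP1B (0.109), DENND2C (0.111) and PHF1 (0.121), and nearest to PER2 were OSBPL3 (0.0201), ZIC2 (0.0847) and FHOD1 (0.109). A pattern of 3 values from 4 libraries is matched closely by some genes in a table of this size, and the distances carry no test.

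The libraries held from 18776212 to 19614763 reads assigned to genes, so 3 counts correspond to between 0.153 and 0.160 CPM. As a check of the labels, 5 genes that MEK signaling switches on (DUSP6, SPRY4, ETV4, ETV5 and PHLDA1) were compared with control. Their median log2 fold changes were -3.56 with trametinib and -3.42 with the combination, all 5 past the limits as lower. With NBT their median was 0.61. All 5 were higher there with intervals off 0, and ETV5 was past the limits (1.03, from 0.85 to 1.22). Of 6 epithelial markers 5 were in the table, and KRT8, KRT18, EPCAM and CDH1 stood at 3799, 3142, 242 and 85.4 TPM in the control, with KRT7 low at 5.74 TPM. Their summed level was 7274 TPM in the control, 6110 under NBT, 3564 under trametinib and 2765 under both, and most of it came from KRT8 and KRT18. Under NBT, trametinib and both, KRT8 stood at 3151, 2216 and 1493 TPM and KRT18 at 2694, 1048 and 995 TPM. In the same order EPCAM stood at 209, 210 and 218 TPM, CDH1 at 51.2, 86.9 and 57.0 TPM, and KRT7 at 4.88, 2.78 and 2.25 TPM. Fibroblast markers summed to between 0.48 and 1.88 TPM and endothelial markers to between 0.25 and 0.45 TPM. Among 3 immune markers, CD68 stood at between 91.9 and 139 TPM, PTPRC was under 1 TPM, and CD3E had 0 reads in the control and with NBT, 55 with trametinib and 29 with both drugs. The part of these marker differences in the clock gene values was not tested.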

How the data were processed

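The authors sequenced RNA of MIA PaCa-2 cells on the BGISEQ-500 platform, 1 library per condition. They deposited for each gene and RefSeq transcript an estimated count, not normalized, a TPM value and an FPKM value. GEO's processing notes name Bowtie2 2.2.5, RSEM 1.2.8 and the build hg38. The labels describe depletion of bacterial rRNA before random-primed cDNA synthesis. The annotation, read filters and strand setting are not given in the sources used here. The deposited FPKM values were not used for any value given.

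Libraries were grouped by their treatment label. The deposited estimated counts were rounded and scaled to each library's sum, and the 5 library pairs were compared with an exact two-sided binomial test (smaller tail doubled), Benjamini-Hochberg adjusted over all genes that had 1 count or more in the pair. The test compares libraries, not conditions. PCR copies are not independent molecules, so intervals and limits on counts of 0 cover counting error only. The interval of a departure from additivity is a normal approximation from the read counts. Estimated counts were not whole (tolerance 0.005) for 6 of the 10 genes. The test was tried on simulated counts that held counting error only, so that trial cannot show how it behaves with variation between cultures.

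The members and lists were chosen with earlier results of these data known. The genes named by rule are the 10 members, list genes past the limits in the combination against control, and the 3 genes nearest in pattern to each of 3 members. Other list genes given with values, and overlapping genes, were chosen after their values were seen. BMAL1 is listed as ARNTL. FBXL21, KRT19 and DCN were not analysed here, and neither was protein identity between related genes. Some list genes are counted but not reported here by name. Alternatives were edgeR 4.0.16 TMM factors, DESeq2 1.42.0 size factors, 5 added reads, summed transcript counts, TPM with a pseudocount of 0.1, a limit of 10 counts, log2 limits of 2 and none, and edgeR's negative binomial exact test with assumed coefficients of variation of 0.2 and 0.4. Python 3.11.15, scipy 1.17.1 and R 4.3.3 were used.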

Additional observations from a re-analysis of the deposited data

Results flagged for a closer look

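BHLHE40 stood out because the library with trametinib was higher than its counterpart without NBT and lower with NBT. Its log2 fold change was 0.58 for trametinib against control and -0.28 for the combination against NBT, both with counting intervals off 0, a difference of -0.85. The difference was not tested, since each condition has 1 library. For neither drug did another of the 10 genes have intervals off 0 on opposite sides.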

How the results depend on the processing

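No paired analysis was possible because each condition has 1 library. For the same reason no replicate could be left out, and the variation between cultures was not measured. All 250 recomputed log2 fold changes of the 10 genes under another scaling, 5 added reads, summed transcript counts or TPM stayed within their counting intervals and kept their sign, with a largest shift of 0.18. All 50 recomputed departures from additivity stayed within their intervals. Another set of library factors shifts every departure by the same amount, and whether the intervals include 0 was not recomputed. With TPM, 118 transcript shares stayed within their intervals and 2 did not, both of DBP with trametinib. The count of clock genes past the limits in the combination against control was 1, and it was 3 with TMM or median-of-ratios factors (PER2 and NR1D1 added, as lower) and 2 with TPM (NR1D1 added). Of all genes, 8.42% passed there, and 8.46% with TMM, 8.48% with median-of-ratios factors and 8.11% with TPM.

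Without the log2 limit, 8, 8, 7, 7 and 7 clock genes passed with NBT, trametinib and the combination against control and in the combination against trametinib and NBT. For the other clock lists these counts were 9, 10, 14, 10 and 13, and of all genes tested 35.5%, 42.7%, 49.6%, 45.5% and 37.4% passed. With a log2 limit of 2 no clock gene passed in any comparison (0 in each), and of the other lists 1 passed with trametinib, 1 with the combination and 0 elsewhere. Of all genes tested, 0.730%, 2.17%, 2.47%, 1.54% and 1.54% passed at that limit, in the same order of comparisons. With an assumed coefficient of variation of 0.2, 1 clock gene passed (BHLHE40 in the combination against trametinib) and 0 elsewhere, and of the other lists 2 with trametinib, 2 with the combination and 0 elsewhere. The shares of all genes were then 0.434%, 2.25%, 3.37%, 1.85% and 1.26%. With 0.4 the counts were 0 throughout, beside 0.0252%, 0.136%, 0.314%, 0.0857% and 0.08% of all genes. For the other lists the combination against trametinib gave 2, but 1 with TPM and 3 with TMM (NFIL3 added). Of all genes, 5.90% passed there with TPM and 6.12% with TMM. Trametinib against control gave 4, but 3 with TMM, median-of-ratios factors, 5 added reads or TPM (TEF lost), and the combination against NBT gave 3, but 2 with TMM, median-of-ratios factors or 5 added reads (TSC22D3 lost). Of all genes, 5.82%, 5.82%, 5.62% and 5.66% passed under these settings with trametinib, and 4.31%, 4.33% and 4.03% in the combination against NBT.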
